A study of Homo sapiens with 12 samples.

Results

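The genes described here encode 10 proteins that take part in moving chloride, potassium, bicarbonate, water or urea across the membranes of ductal epithelium. The genes are *CFTR*, *ANO1*, *ANO6*, *KCNQ1*, *KCNE3*, *CA2*, *SLC4A4*, *SLC12A2*, *AQP5* and *SLC14A1*. Each was found by its Ensembl identifier, and all 10 were found among the 57820 gene rows of the count tables. The members were selected on their function and on their measured levels and fold changes in these same comparisons, siBACH1 against siCont and sgBACH1 against sgCont. The fold changes of the 10 genes are therefore given as a description with their standard errors, with no test, and the calls counted over them are not a result about the set.

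The cells were AsPC-1, a human line from pancreatic ductal adenocarcinoma, and the data are 4 groups of 3 libraries of rRNA-depleted total RNA. The siBACH1 cells were transfected with a Stealth small interfering RNA (siRNA) against *BACH1*, which encodes a heme-binding transcriptional repressor, and were harvested 24 h later; siCont cells were their controls. The sgBACH1 cells were made with a lentiCRISPR v2 vector carrying a guide RNA against *BACH1* and selected in 10 µg/ml puromycin; sgCont cells were their controls. The sources used here do not give the sequence of the siRNA, what the control siRNA and control guide target, or whether the knockout cells are 1 clone or a pool. Nothing in the labels says that the 3 libraries of a group came from separate cultures, so standard errors and p-values measure only the spread between these libraries.

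Total counts ran from 13099706 to 21478886 per library. *BACH1* itself stood at 24.9, 27.7 and 24.7 CPM (read counts relative to the library total after TMM scaling, each table alone) in siBACH1 against 196.9, 293.7 and 196.5 in siCont. It stood at 218.3, 198.1 and 185.3 CPM in sgBACH1 against 267.8, 293.7 and 276.4 in sgCont. A guide that cuts the gene need not lower its RNA, so the sgBACH1 label rests less on this gene than the siBACH1 label does. *HMOX1*, the other gene set as a check of the labels, stood at 451.8, 459.2 and 511.3 CPM in sgBACH1 against 11.3, 6.33 and 9.37 in sgCont. In the siRNA experiment *HMOX1* stood at 175.2, 165.8 and 179.8 CPM in siBACH1 against 6.12, 6.54 and 7.24 in siCont. The second siCont library stood apart from its group: its counts differed from the other two by a chi-square per degree of freedom of 27.3 and 31.9, against 8.09 between those and 6.33 to 13.2 for pairs in the other groups. More genes had at least 1 count in sgBACH1 (23452 to 25502) than in sgCont (20780 to 22503). Ductal epithelial markers (7 of 8 found) summed to 12740 to 13130 CPM in siBACH1, 11420 to 12930 in siCont, 12070 to 13540 in sgBACH1 and 18820 to 20400 in sgCont. The lower sum in sgBACH1 comes from the keratins: *KRT8*, *KRT18*, *KRT19* and *KRT7* had log2 fold changes of -0.66, -0.74, -0.32 and -1.81, while *EPCAM*, *SOX9* and *MUC1* had 0.54, 0.62 and 0.38 (each called in edgeR). Acinar markers summed to at most 0.786 CPM and endocrine markers to at most 0.118 CPM, with 4 of 5 endocrine markers at 0 counts. Markers of blood and endothelium summed to at most 3.59 CPM. The fibroblast list, with 0 of 6 genes at 0 counts, summed to 339 to 358 CPM in siBACH1, 294.9 to 306.9 in siCont, 45.5 to 51.5 in sgBACH1 and 114 to 138.8 in sgCont, nearly all of it from 1 gene, *LUM*. The part of these marker levels in the results below was not tested.

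Pancreatic duct cells secrete a bicarbonate-rich fluid. In the textbook account, chloride and bicarbonate leave through the cAMP-regulated channel CFTR and through calcium-activated channels at the apical membrane. Potassium channels keep the driving force. Bicarbonate is supplied by carbonic anhydrase and by basolateral sodium-bicarbonate cotransport, chloride is taken up by the sodium-potassium-chloride cotransporter, and water follows through aquaporins.

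Levels of the 10 genes can be compared with each other only per length, and on that scale (mean CPM per kb of exon) they spanned several orders of magnitude. *ANO1* was the highest in every group, at 82.8 in siBACH1, 75.5 in siCont, 84.3 in sgBACH1 and 98.8 in sgCont. *ANO6* came next in each group, with 6.21 CPM per kb in siBACH1, 36.0 in siCont, 27.8 in sgBACH1 and 26.8 in sgCont. *SLC12A2* followed with 4.21, 7.43, 14.3 and 18.003 CPM per kb in the same order of groups, and then *CA2* with 3.05, 2.99, 3.37 and 8.46. In siBACH1 the libraries of *SLC12A2* and *CA2* overlapped on this scale, so their order there is not larger than the spread; in the other groups it is. *SLC14A1* reached 2.38 CPM per kb in sgCont and lay between 0.0709 and 0.272 in the other groups. *KCNE3* reached 1.18 CPM per kb in sgBACH1 and at most 0.0160 elsewhere. *KCNQ1* stayed between 0.0894 and 0.673, *AQP5* at or below 0.355, *SLC4A4* at or below 0.0538 and *CFTR* at or below 0.0120. The order of *SLC14A1*, *AQP5* and *SLC4A4* in sgBACH1, and that of *SLC14A1* and *AQP5* in siCont, was within the spread between libraries. The most abundant of these transport RNAs in AsPC-1 was thus a calcium-activated channel, and the RNA of the cAMP-regulated channel was close to absent.

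**Figure D1:**
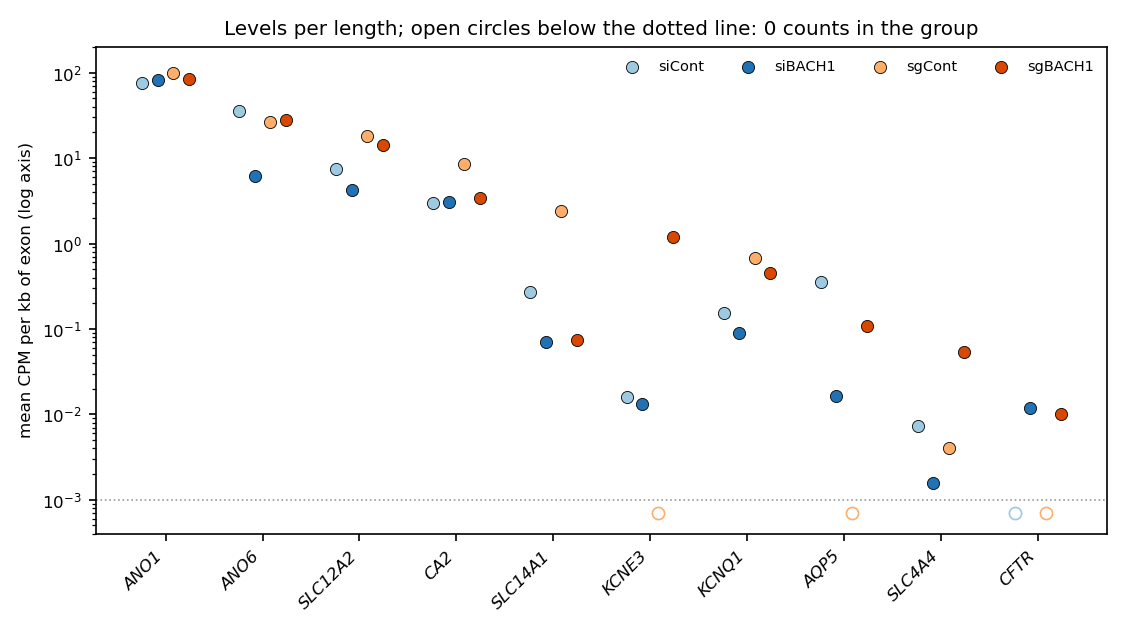
Mean CPM per kb of exon (log axis) of each of the 10 genes in siCont, siBACH1, sgCont and sgBACH1, 3 libraries each. *ANO1* lies highest in every group; open circles below the dotted line mark groups with 0 counts, which are *KCNE3* and *AQP5* in sgCont and *CFTR* in both control groups.

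In the siRNA experiment 6 of the 10 genes had counts high enough to be tested, and in the knockout experiment 7 did. *CFTR*, *SLC4A4* and *AQP5* passed the filter on low counts in neither. With a call defined as an adjusted p below 0.05 in edgeR's quasi-likelihood test over all genes, 3 of the 6 were called, all lower, in siBACH1 (*ANO6*, *SLC12A2* and *SLC14A1*). Among all 14591 genes tested there, 23.9% were called, and 13% were called lower. In sgBACH1 4 of the 7 were called lower (*ANO1*, *CA2*, *SLC12A2* and *SLC14A1*), where 23.5% of all 14469 genes were called. Of all genes tested in sgBACH1, 12.3% were called lower. *KCNE3*, the other called member there, had 0 counts in sgCont and passed the filter through sgBACH1 alone. It thus had to differ, and its call carries no weight. *SLC14A1* owed its place in both fits mainly to the control group, siCont in the siRNA fit and sgCont in the knockout fit. The median log2 fold change was -0.78 over the 6 genes and -0.34 over the 7 with *KCNE3*, against 0.0050 and 0.0055 over all genes tested. The 3 libraries of each group did not overlap for 4 of the 6 genes in the siRNA experiment, where 42.5% of all genes tested did not overlap. In the knockout experiment they did not overlap for 5 of the 7, *KCNE3* among them, where the share of all genes was 36.5%. *SLC12A2* and *SLC14A1* are the members called lower in both experiments, and for *SLC14A1* the filter favoured a lower value in both.

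**Figure D2:**
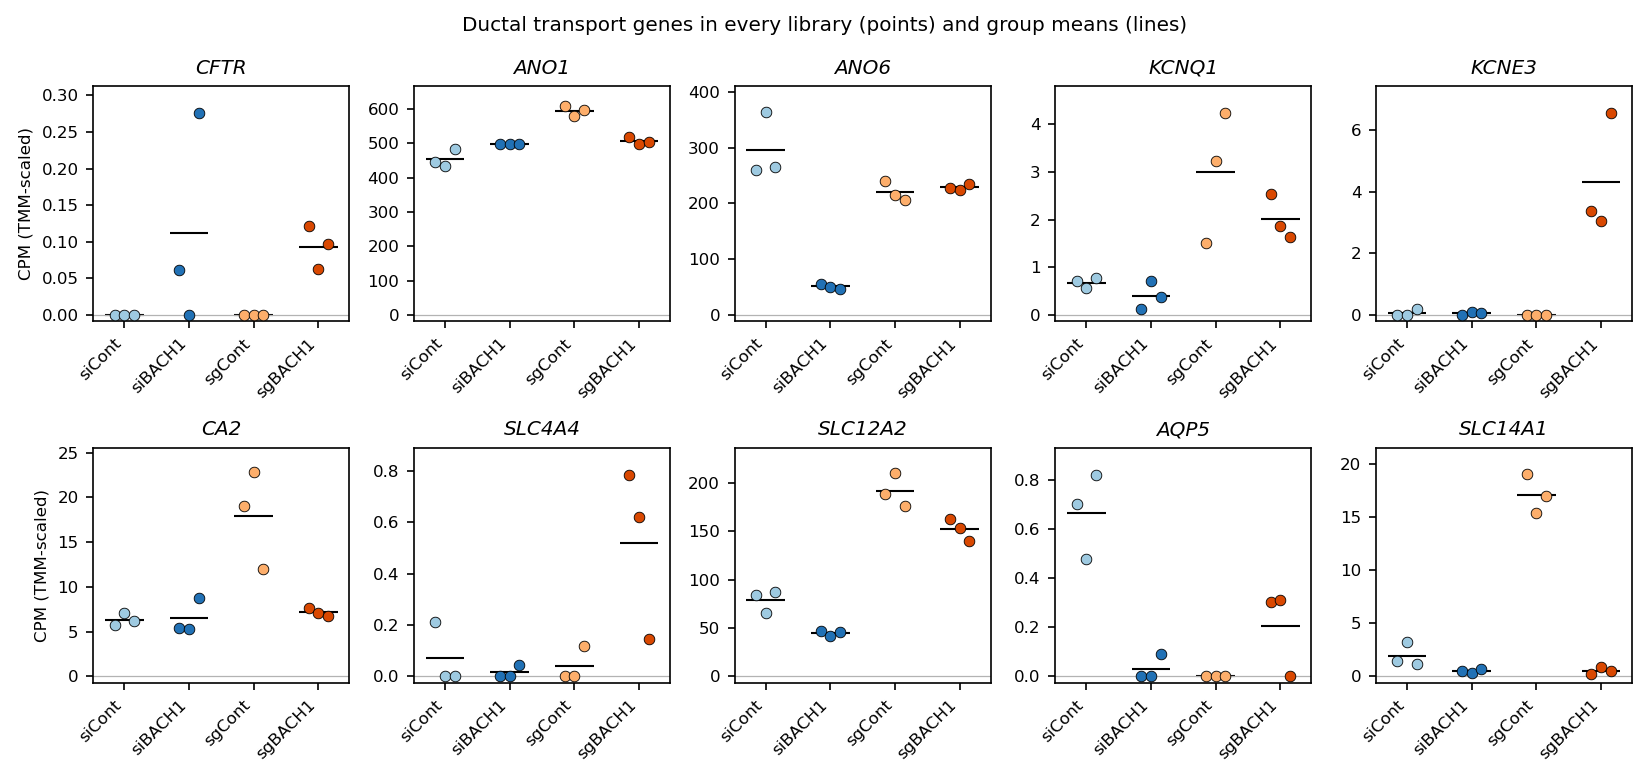
CPM of each of the 10 genes in every library (points) with the mean of each group of 3 (line), each panel on its own linear axis from 0. *ANO6* is lowest in siBACH1, *SLC14A1* and *CA2* are highest in sgCont, and *KCNE3* reaches more than 1 CPM in sgBACH1 alone.

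The chloride channels came first in abundance. *ANO6* (TMEM16F, ENSG00000177119.11; GRCh38 chromosome 12, 45215987 to 45440404, plus strand) encodes a calcium-activated phospholipid scramblase that also conducts ions. Its level was 55.8, 50.4 and 47.2 CPM in siBACH1 against 259.4, 364.2 and 264.7 in siCont. Every siBACH1 library lay far below every siCont library, and the fitted log2 fold change was -2.53 ± 0.14 (SE, n = 3 and 3), a 5.79-fold lower level. In bulk RNA, fewer cells holding a transcript and less of it per cell cannot be told apart, here and in every result below. In sgBACH1 *ANO6* stood at 227.5, 224.8 and 234.3 CPM and in sgCont at 240.4, 215.0 and 206.5. These groups overlapped, with a log2 fold change of 0.05 ± 0.08. The 2 log2 fold changes of *ANO6* thus differed by 2.58 ± 0.16, sgBACH1 minus siBACH1.

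An siRNA can also lower RNAs other than its target through short matches in their 3′ untranslated regions (3′ UTRs), and the letters AACATTA or ACATTAA were earlier found more often in the 3′ UTRs of genes lower in siBACH1 in these same data. The search for them here is therefore a description. One or both were present in the 3′ UTR of 24.7% of the 11652 tested genes searched, in 54.5% of those called lower in siBACH1, in 13.1% of those called higher and in 20.6% of those not called. Both motifs were searched on the transcript strand only, and they overlap in AACATTAA. Of the 10 transport genes, 5 held a match: *ANO6*, *SLC12A2*, *SLC14A1*, *CFTR* and *KCNE3*. All 3 members called lower in siBACH1 are among them, and *ANO1*, *CA2* and *KCNQ1*, which were tested and not called, are not. *CFTR* and *KCNE3* were too low to be tested there. The members were chosen on these same fold changes, so this split carries no weight. *SLC12A2* and *SLC14A1* were called lower in sgBACH1 as well, at -0.34 and -5.01. The matches of *ANO6*, *SLC12A2* and *SLC14A1* are shown because these members were called lower in siBACH1, and those of *CFTR* and *KCNE3* are not shown. The motif is in capitals with 10 bases on each side, 5′ to 3′ (GENCODE 29 transcripts, GRCh38).
ANO6, site 1: agcatattgaAACATTAgagcaaatac
ANO6, site 2: aatttcataaAACATTAattcacaatg
SLC12A2: cttcaatgacACATTAAcatcacaatg
SLC14A1: taaaaatagtAACATTAgccaggtgta
The *ANO6* motifs lie on chromosome 12 from 45431891 to 45431897 and from 45432065 to 45432071, at bases 2580 and 2754 of a 3′ UTR of 3040 bases, and site 2 runs on into an overlapping ACATTAA. The *SLC12A2* motif lies on chromosome 5 from 128186705 to 128186711, at base 74 of 3057, and that of *SLC14A1* on chromosome 18 from 45751630 to 45751636, at base 1792 of 2682, all on the plus strand. Whether any of these matches has a part in the lower levels was not tested.

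*ANO1* (TMEM16A, ENSG00000131620.13; GRCh38 chromosome 11, 70078302 to 70189528, plus strand) encodes the calcium-activated chloride channel of secretory epithelia. It was measured at 497.6, 499.8 and 498.2 CPM in siBACH1 against 444.9, 434.3 and 484.5 in siCont. The siBACH1 libraries all lay above the siCont libraries, but the log2 fold change of 0.13 ± 0.07 was not called. In the knockout experiment *ANO1* stood at 517.8, 499.8 and 505.5 CPM in sgBACH1 against 609.4, 579.0 and 596.3 in sgCont. There all sgBACH1 libraries lay below all sgCont libraries, with a log2 fold change of -0.23 ± 0.06, and the call was lost without the second sgBACH1 library, at -0.22. The genes around *ANO1* on chromosome 11 were lower in sgBACH1 as well: over the 100 nearest tested genes the median log2 fold change was -0.259, with 6 called higher and 37 lower. The part of this neighbourhood in the *ANO1* value was not tested. In the siRNA experiment the same kind of neighbourhood had a median of -0.0183.

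*CFTR* (ENSG00000001626.10; GRCh38 chromosome 7, 117465784 to 117715971, plus strand) encodes the cAMP-regulated chloride and bicarbonate channel of the apical duct membrane. The siBACH1 libraries held 1, 0 and 6 counts of *CFTR*, and each siCont library 0. In the knockout experiment they were 2, 1 and 2 in sgBACH1 and again 0 in each sgCont library. A group at 0 counts allows a level of up to 3 counts over its 3 libraries, which is 0.0684 CPM in siCont and 0.0598 in sgCont. With the treated counts taken as observed, *CFTR* stood 1.77-fold above that level in siBACH1 and 1.57-fold above it in sgBACH1. The counting error of the treated counts themselves is not in these values, so they are not lower limits of the fold. At so few counts the gene was too low to be tested, and 1 library held 6 of the 7 siBACH1 counts.

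Potassium exit was represented by a channel and its accessory subunit. *KCNE3* (ENSG00000175538.6; GRCh38 chromosome 11, 74454841 to 74467729, minus strand) encodes a small subunit that holds the KCNQ1 potassium channel open at resting voltage in epithelia. It had 56, 49 and 136 counts in sgBACH1, which is 3.39, 3.05 and 6.56 CPM, and 0 counts in each sgCont library. With its sgBACH1 counts taken as observed, *KCNE3* stood 75.6-fold above a level of 3 counts over the sgCont group. In the siRNA experiment the 3 siBACH1 libraries held 0, 2 and 1 counts of it and the siCont libraries 0, 0 and 3, too few to be tested. The gene was near 0 in 3 of the 4 groups and stood out in sgBACH1 only. Its neighbourhood moved the other way: over the 100 nearest tested genes the median log2 fold change was -0.232 in sgBACH1, with 6 called higher and 30 lower.

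*KCNQ1* (ENSG00000053918.11; GRCh38 chromosome 11, 2444684 to 2849110, plus strand) encodes the pore-forming subunit that KCNE3 joins. It stood at 0.122, 0.703 and 0.368 CPM in siBACH1 and at 0.703, 0.558 and 0.765 in siCont, with a log2 fold change of -0.73 ± 0.58. In sgBACH1 it stood at 2.54, 1.87 and 1.64 CPM against 1.5002, 3.24 and 4.24 in sgCont, with a log2 fold change of -0.57 ± 0.49. Neither was called and the groups overlapped in both experiments. Single libraries carried much of the siRNA value, which was -0.35 without the first siBACH1 library and -1.39 without the second. The RNA of the pore subunit thus gave no called change where that of its partner *KCNE3* appeared.

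The counts of both potassium genes carry a limit. For 5 of the 10 genes, exon bases are shared with a gene on the other strand, and the sources used here do not say whether counting used strand. *KCNQ1* shares 177 exon bases with *KCNQ1OT1* and *KCNQ1-AS1*, and *KCNQ1OT1*, a long noncoding RNA, had 32 to 117 counts per library, more than *KCNQ1* itself in every library of both experiments. *KCNE3* shares 609 bases with *AP001372.3*, which was not analysed here. *ANO1* shares 646 bases with *ANO1-AS1*, which had 0 counts. *ANO6* shares 55 bases with *PLEKHA8P1*, whose log2 fold changes of -0.00 in siBACH1 and -0.19 in sgBACH1 were not called. *CFTR* shares 59 bases with *CFTR-AS1* and *CTTNBP2*, which had at most 2 counts in a library.

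For the supply of bicarbonate, *CA2* (ENSG00000104267.5; GRCh38 chromosome 8, 85463852 to 85481493, plus strand) encodes the cytosolic carbonic anhydrase that hydrates carbon dioxide in duct cells. It stood at 7.62, 7.09 and 6.75 CPM in sgBACH1 against 19.1, 22.8 and 12.02 in sgCont. All sgBACH1 libraries lay below all sgCont libraries, with a log2 fold change of -1.33 ± 0.23, a 2.51-fold lower level. In the siRNA experiment *CA2* stood at 5.42, 5.27 and 8.74 CPM in siBACH1 and at 5.77, 7.10 and 6.18 in siCont. These overlapped, with a log2 fold change of 0.04 ± 0.24 that was -0.25 without the third siBACH1 library and -0.04 without the first siCont library. The 2 log2 fold changes of *CA2* differed by -1.37 ± 0.35, sgBACH1 minus siBACH1. The level set apart was that of sgCont: siBACH1, siCont and sgBACH1 had means of 6.48, 6.35 and 7.15 CPM and sgCont a mean of 17.97. The 2 tables were scaled separately, so levels across experiments are set side by side only. The 100 genes nearest to *CA2* had a median log2 fold change of 0.112 in sgBACH1.

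*SLC4A4* (ENSG00000080493.9; GRCh38 chromosome 4, 71062667 to 71572087, plus strand) encodes the basolateral sodium-bicarbonate cotransporter NBCe1. The sgBACH1 libraries held 13, 10 and 3 of its counts, against 0, 0 and 2 for sgCont. The ratio of the depth-scaled sums, 26 against 2 counts, was 12.2 with an exact 95% interval of 3.06 to 106 that covers counting error only. The siBACH1 libraries held 0, 0 and 1 counts, the siCont libraries 3, 0 and 0. *SLC4A4* was too low to be tested in either experiment.

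*SLC12A2* (NKCC1, ENSG00000064651.9; GRCh38 chromosome 5, 128083766 to 128189688, plus strand) encodes the basolateral cotransporter that loads secretory cells with chloride. It stood at 47.1, 41.9 and 45.5 CPM in siBACH1 against 84.0, 65.9 and 87.7 in siCont. The log2 fold change was -0.82 ± 0.12, a 1.77-fold lower level, and the groups did not overlap. In the knockout experiment *SLC12A2* stood at 162.5, 153.7 and 140.3 CPM in sgBACH1 against 189.0, 210.7 and 176.3 in sgCont. There too the groups did not overlap, with a log2 fold change of -0.34 ± 0.08, a 1.26-fold lower level. The knockout call was lost without the third sgBACH1 library, at -0.28. *SLC12A2* was lower in both experiments, by a larger log2 fold change in siBACH1 (sgBACH1 minus siBACH1, 0.48 ± 0.15).

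Water and urea were represented by *AQP5* and *SLC14A1*. *AQP5* (ENSG00000161798.6; GRCh38 chromosome 12, 49961870 to 49965681, plus strand) encodes the aquaporin of apical secretory membranes. The siBACH1 libraries held 0, 0 and 2 of its counts, against 10, 6 and 14 for siCont. The depth-scaled sums, 2 against 30 counts, gave a 19.8-fold lower level with an exact 95% interval of 5.02 to 171, for counting error only. The sgBACH1 libraries held 5, 5 and 0 counts and every sgCont library 0. Taken as observed, the sgBACH1 counts stood 3.14-fold above a level of 3 counts over sgCont. *AQP5* was thus lower in siBACH1 and higher in sgBACH1 than in the respective controls, at counts too low to be tested in either. *CFTR*, *KCNE3*, *SLC4A4* and *AQP5*, the members of lowest level in sgCont, all had more counts in sgBACH1. Genes at or near 0 counts in sgCont could hardly have fewer, so this shared direction carries no weight. More genes also had a count at all in sgBACH1 than in sgCont, and the part of that in these values was not tested.

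*SLC14A1* (ENSG00000141469.12; GRCh38 chromosome 18, 45687025 to 45752520, plus strand) encodes the urea transporter UT-B, which also carries the Kidd blood group. It stood at 0.181, 0.871 and 0.530 CPM in sgBACH1 against 19.0, 15.3 and 16.97 in sgCont, from 3, 14 and 11 counts against 355, 218 and 288. The log2 fold change was -5.01 ± 0.36, a 32.2-fold lower level. It moved with single low libraries, to -4.62 without the first sgBACH1 library and -5.50 without the second, and *SLC14A1* was called in 12 of 12 fits. In the siRNA experiment it stood at 0.487, 0.352 and 0.690 CPM in siBACH1 against 1.41, 3.27 and 1.18 in siCont, from 8, 7 and 15 counts against 20, 41 and 20. The log2 fold change there was -1.89 ± 0.51, a 3.71-fold lower level with groups that did not overlap. That call was lost without any 1 of the siBACH1 libraries (-1.86, -1.68 and -2.19) and without the second siCont library (-1.32). The 2 log2 fold changes of *SLC14A1* differed by -3.13 ± 0.66, sgBACH1 minus siBACH1, and as with *CA2* the level set apart was that of sgCont.

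Over the 12 libraries the genes whose log2 CPM went most closely with *SLC14A1*, outside the sets described here, were *MPRIP* (Pearson r = 0.990), *RGS3* (r = 0.983) and *ITGB2* (r = 0.981). The 12 libraries fall into 4 groups, of which sgCont stood apart in *SLC14A1* level. *CFTR* was too low for such a comparison.

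**Figure D3:**
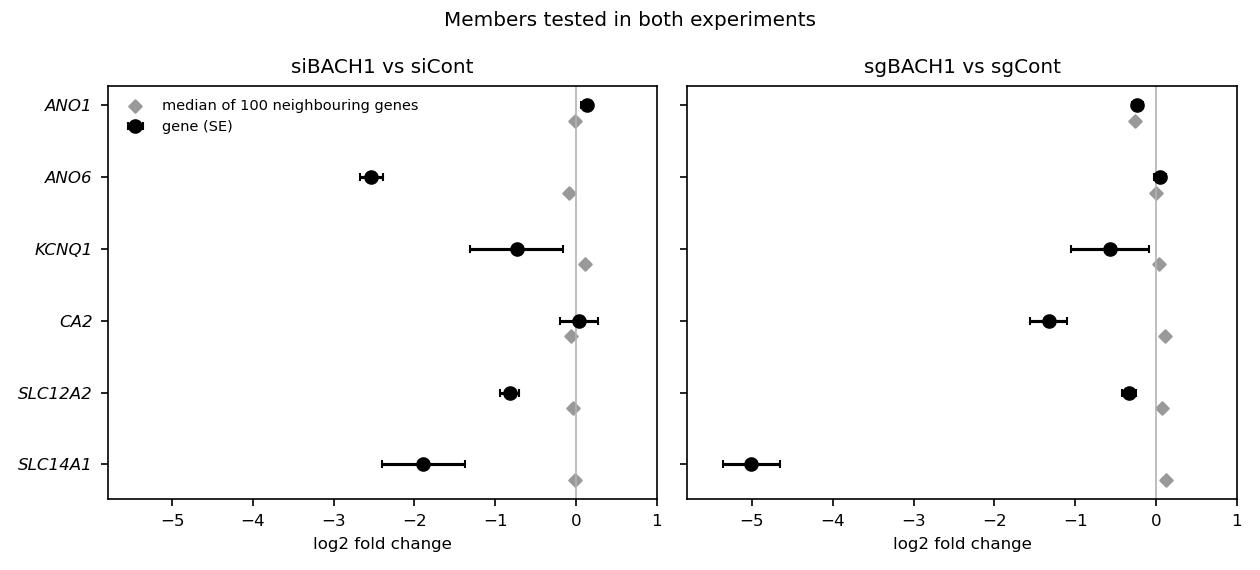
Log2 fold changes with SE of the 6 members tested in both experiments, siBACH1 against siCont and sgBACH1 against sgCont, 3 libraries per group; grey diamonds mark the median of the 100 neighbouring genes. *ANO6* lies at -2.53 in the siRNA experiment and at 0.05 in the knockout, and *SLC14A1* lies below 0 in both.

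BACH1 and the related NRF2 bind, with small MAF partners, to elements with the core TGACNNNGC, and AP-1 factors bind TGAGTCA. Both motifs were searched on both strands in RefSeq promoter windows (GRCh38.p14, 250 bases before to 50 after a start), of which 13 belong to 8 of the 10 genes. TGACNNNGC matched in 0 of the 13 windows, against 13.3% of 35116 promoters. TGAGTCA matched in 2 windows, both of *SLC4A4*, against 4.95% of all promoters. The *SLC4A4* matches are shown because they are the only ones, with the motif or its reverse complement in capitals, 5′ to 3′ on the plus strand.
SLC4A4, 76 bases before a start: ggccagcatgTGACTCAaagcttgcca
SLC4A4, 16 bases after another start: taattttggaTGAGTCAtaagtggaga
They lie on chromosome 4 from 71235984 to 71235990 and from 71339036 to 71339042. A match is a string of letters and says nothing of binding in these cells.

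The genes that work with these transporters were followed in a list of 159 genes of the same families and of ductal secretion that holds none of the 10, of which 158 were found. In siBACH1 83 of them were tested, 11 rose, 10 fell and 62 were not called, which is 25.3% called against 23.9% of all genes tested, with a median log2 fold change of 0.07. The siRNA counts depended on single libraries: 6 rose without any 1 siBACH1 library, and 20 rose and 19 fell without the second siCont library. In sgBACH1 82 were tested, 15 rose, 18 fell and 49 were not called, which is 40.2% against 23.5% of all genes tested, with a median of 0.01. The list was chosen with earlier results of these data known, so both shares are a description. Of the 79 tested in both experiments, 4 rose in both (*SLC12A7*, *AQP11*, *ANO9* and *SLC9A2*) and 5 fell in both (*CA9*, *P2RY2*, *ADCY7*, *EZR* and *BEST3*). *BEST3* had 18, 6 and 7 counts in siBACH1 against 39, 29 and 19 in siCont. Its counts were 36, 9 and 18 in sgBACH1 against 88, 52 and 44 in sgCont. *BEST3* passed the filter on low counts more through the controls than through the treated groups, which favoured a lower value. *KCNK5* rose in siBACH1 and fell in sgBACH1, and *SLC9A3* did the reverse. Exon bases shared with other genes limit the counts of some listed genes too. *ADCY7* shares 3593 with *BRD7* on the other strand, and *SLC9A3* shares 2363 with *PP7080* on its own strand and 1669 on the other. On their own strands *FXYD3* shares 1357, and *P2RY11* shares 1245 with *PPAN-P2RY11* and *PPAN*. P-values below are from edgeR's quasi-likelihood test, adjusted over all genes tested. Counts per family below rest on few genes and stand beside shares of 23.9% of all genes in siBACH1 and 23.5% in sgBACH1. The shares of all genes called lower were 13% in siBACH1 and 12.3% in sgBACH1.

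Of the carbonic anhydrases tested, 3 of 5 changed in sgBACH1 and 1 of 6 in siBACH1, each of them lower. *CA9*, a membrane enzyme known as a hypoxia target, stood at 15.6, 14.4 and 15.3 CPM in siBACH1 against 77.9, 40.3 and 72.1 in siCont (log2 fold change -2.07 ± 0.22, edgeR adjusted p = 0.000199). In sgBACH1 it stood at 40.2, 33.5 and 34.9 CPM against 88.1, 87.3 and 83.2 (-1.25 ± 0.11, edgeR adjusted p = 2.72e-09). *CA9* was lower in every treated library of both experiments. *CA12*, another membrane enzyme, fell in sgBACH1 by 1.96 ± 0.20 on the log2 scale (edgeR adjusted p = 5.15e-08), and its value in siBACH1 was 0.53 ± 0.20 (edgeR adjusted p = 0.0824). *CA13*, a cytosolic enzyme whose gene lies 180 kb from *CA2*, stood at 2.48, 2.61 and 2.55 CPM in sgBACH1 against 12.8, 16.5 and 9.61 in sgCont (-2.34 ± 0.28, edgeR adjusted p = 7.79e-07). In siBACH1 its value of -1.06 was not called (edgeR adjusted p = 0.218). *CA2* and *CA13* were thus both lower in the knockout cells, and the genes around *CA13* had a median of 0.125. As with *CA2*, the level set apart was that of sgCont for *CA12* and *CA13*, set side by side only. *CA12* had means of 11.6 CPM in siBACH1, 8.03 in siCont, 9.78 in sgBACH1 and 37.9 in sgCont. Those of *CA13* were 0.934, 2.03, 2.55 and 12.97 CPM in the same order.

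Among bicarbonate and anion exchangers, 2 of the 5 SLC4 family genes tested in sgBACH1 were called, both lower, against 23.5% of all genes. Of all genes tested there, 12.3% were called lower. In siBACH1 0 of 4 were called, against 23.9% of all genes. The 2 were *SLC4A2*, at -0.32, and *SLC4A10*, at -2.51. *SLC4A10* had 11, 2 and 0 counts in sgBACH1 against 33, 24 and 17 in sgCont and passed the filter mainly through sgCont, which favoured a lower value. *SLC26A2*, a sulfate transporter, fell in siBACH1 (-1.38 ± 0.25, edgeR adjusted p = 0.00427) and had a log2 fold change of 0.01 in sgBACH1. *SLC26A1*, also a sulfate transporter, rose in siBACH1 (2.09 ± 0.33, edgeR adjusted p = 0.00194), and its value of 1.04 in sgBACH1 was not called (edgeR adjusted p = 0.218). *SLC12A7*, the potassium-chloride cotransporter KCC4 and a relative of *SLC12A2* that carries chloride out, rose in siBACH1 by 0.38 (edgeR adjusted p = 0.0113) and in sgBACH1 by 0.33 (edgeR adjusted p = 0.00296). The siRNA call of *SLC12A7* was lost without the first (0.36) or the third (0.37) siBACH1 library.

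Sodium and proton transport gave 2 rises and 1 fall among 11 tested in siBACH1 and 3 rises and 1 fall among 11 in sgBACH1. *SLC9A2*, the sodium-proton exchanger NHE2, stood at 34.1, 31.6 and 32.6 CPM in siBACH1 against 13.3, 16.7 and 13.0 in siCont (1.19 ± 0.13, edgeR adjusted p = 0.000217). In sgBACH1 it stood at 25.4, 19.6 and 25.1 CPM against 2.25, 1.83 and 2.42 in sgCont (3.42 ± 0.23, edgeR adjusted p = 5.97e-11). It was higher in every treated library of both experiments. *SLC9A3*, the exchanger NHE3, fell in siBACH1 (-0.94 ± 0.19, edgeR adjusted p = 0.00733) and rose in sgBACH1 (0.77 ± 0.27, edgeR adjusted p = 0.0421). The knockout call of *SLC9A3* was lost without any 1 sgBACH1 library (0.83, 0.85 and 0.63), without the first (0.68) or the third (0.67) sgCont library and with no filter on low counts (0.78). *FXYD3*, a regulator of the sodium pump, stood at 41.4, 44.98 and 39.7 CPM in sgBACH1 against 4.88, 7.95 and 4.07 in sgCont (2.91 ± 0.20, edgeR adjusted p = 5.86e-11). In siBACH1 its value was 0.31 (edgeR adjusted p = 0.0809). The means of *FXYD3* were 32.3 CPM in siBACH1, 26.1 in siCont, 42.0 in sgBACH1 and 5.63 in sgCont. Set side by side only, the level set apart was that of sgCont.

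Among receptors that drive secretion, *P2RY2*, the nucleotide receptor that raises calcium in duct cells, stood at 44.4, 40.3 and 46.7 CPM in siBACH1 against 128.2, 132.3 and 120.8 in siCont (-1.54 ± 0.09, edgeR adjusted p = 7.27e-06). It fell in sgBACH1 as well (-0.67 ± 0.09, edgeR adjusted p = 5.22e-06), where the 100 genes around it on chromosome 11 had a median of -0.259, with 8 called higher and 34 lower. The part of that neighbourhood in the *P2RY2* value was not tested. *VIPR1*, a receptor for vasoactive intestinal peptide, fell in sgBACH1 (-0.87 ± 0.15, edgeR adjusted p = 0.000101). *SCTR*, the secretin receptor, had 0 counts over siBACH1 and 2 over each of the other groups, and was too low to be tested; it is named for its role, after its values were seen. *ADCY7*, an adenylyl cyclase, fell in siBACH1 (-0.99 ± 0.14, edgeR adjusted p = 0.00101) and in sgBACH1 (-0.67 ± 0.13, edgeR adjusted p = 0.000403). *PRKACB*, a catalytic subunit of the cAMP-dependent kinase, rose in sgBACH1 (0.66 ± 0.11, edgeR adjusted p = 9.69e-05). Its value in siBACH1 was -0.57 (edgeR adjusted p = 0.0518), which became a call under DESeq2, with no filter on low counts, and without any 1 of the siCont libraries (-0.69, -0.29 and -0.72). *WNK4*, a kinase that controls chloride transporters, fell in siBACH1 (-1.14 ± 0.19, edgeR adjusted p = 0.00278).

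CFTR scaffolds and partners gave 1 rise and 2 falls among 9 tested in siBACH1 and 4 rises and 2 falls among 10 in sgBACH1. *EZR*, which ties membrane proteins to actin, fell in siBACH1 (-0.68, edgeR adjusted p = 0.0209) and in sgBACH1 (-0.34 ± 0.06, edgeR adjusted p = 0.000201). Its siRNA call was lost without any 1 siBACH1 library (-0.67, -0.69 and -0.69). *GOPC*, a Golgi protein that sends CFTR to lysosomes, fell in siBACH1 (-1.33 ± 0.14, edgeR adjusted p = 0.000174) and had a value of 0.10 in sgBACH1. *AHCYL2*, a close relative of the bicarbonate transport regulator IRBIT, stood at 105.4, 90.4 and 106.0 CPM in sgBACH1 against 38.0, 38.2 and 34.1 in sgCont (1.45 ± 0.11, edgeR adjusted p = 1.43e-10). Its means were 104.3 CPM in siBACH1, 117.7 in siCont, 100.6 in sgBACH1 and 36.8 in sgCont. Set side by side only, the level set apart was that of sgCont. *STX1A*, a syntaxin that binds CFTR, rose in sgBACH1 (1.05 ± 0.26, edgeR adjusted p = 0.00396).

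Other channels moved in either direction. *KCNK5*, a potassium channel, stood at 85.3, 76.8 and 78.3 CPM in siBACH1 against 45.6, 46.9 and 48.3 in siCont (0.77 ± 0.09, edgeR adjusted p = 0.000258). In sgBACH1 it stood at 45.6, 38.9 and 49.0 CPM against 67.4, 66.4 and 64.2 (-0.57 ± 0.11, edgeR adjusted p = 0.000448). *KCNQ3*, a relative of *KCNQ1*, fell in sgBACH1 (-0.97 ± 0.11, edgeR adjusted p = 4.39e-07), and *TTYH3*, a tweety family protein, rose there (1.21 ± 0.08, edgeR adjusted p = 1.75e-11). The value of *TTYH3* in siBACH1 was 0.51 ± 0.18 (edgeR adjusted p = 0.0655). It became a call under DESeq2, under limma-voom, with no filter on low counts and with a replicate block. The same held without the second (0.29) or the third (0.63) siCont library. *ANO9*, a relative of *ANO1* and *ANO6*, rose in siBACH1 (0.97 ± 0.21, edgeR adjusted p = 0.0098) and in sgBACH1 (0.62 ± 0.17, edgeR adjusted p = 0.00963). *AQP11*, *ANO10*, *P2RY11* and *BEST3* were called in siBACH1 at 0.81, -1.11, 1.37 and -1.87, and *AQP11* and *BEST3* in sgBACH1 at 1.02 and -1.61. Each of those calls was lost without the second, and also without the third, library of its treated group. Without the first treated library *BEST3* moved to -2.68 in siBACH1 and -2.33 in sgBACH1. Of the 10 listed genes that fell in siBACH1, 6 held AACATTA or ACATTAA in the 3′ UTR (*SLC26A2*, *ANO10*, *ADCY7*, *EZR*, *GOPC* and *BEST3*), as did 2 of the 11 that rose and 20 of the 62 not called.

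**Figure D4:**
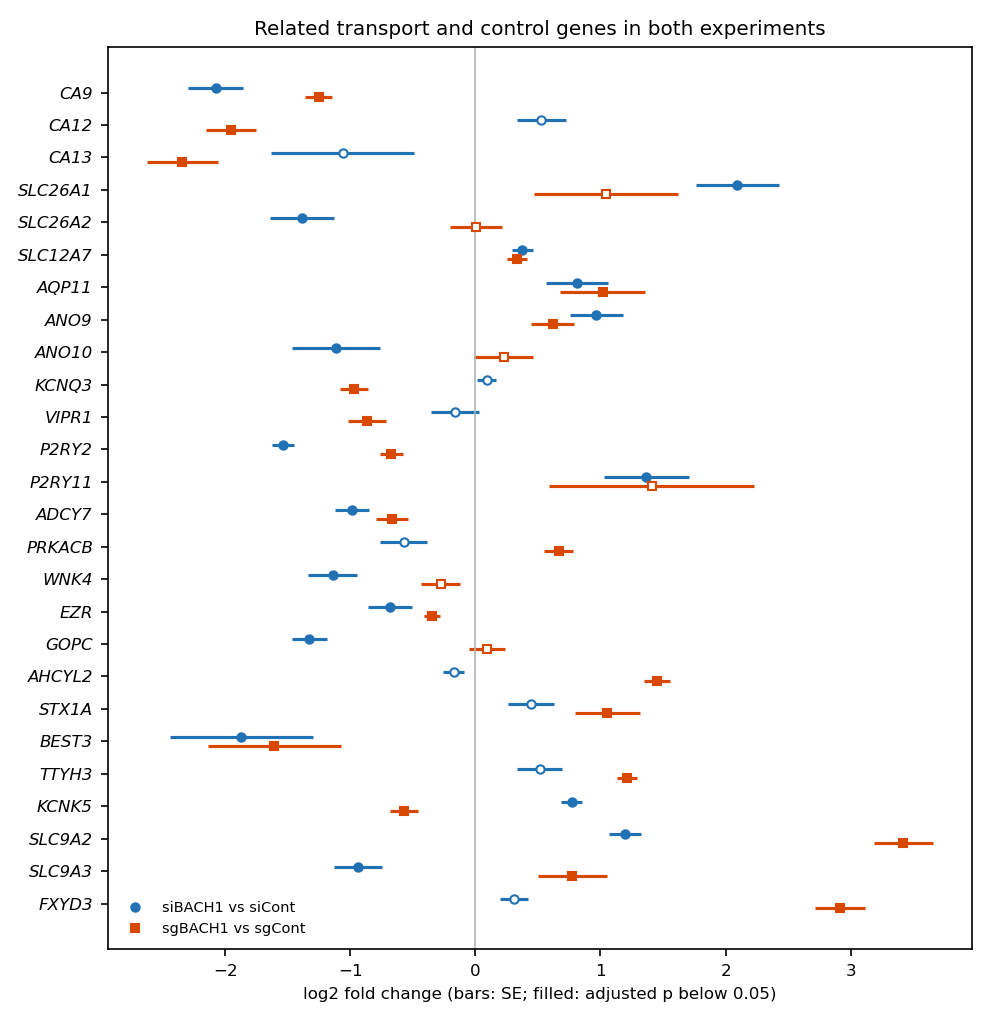
Log2 fold changes with SE of 26 related transport and control genes in siBACH1 against siCont (circles) and sgBACH1 against sgCont (squares), 3 libraries per group, filled where the edgeR adjusted p is below 0.05. *SLC9A2* and *FXYD3* lie farthest to the right in the knockout, and *KCNK5* and *SLC9A3* lie on opposite sides of 0 in the 2 experiments.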

How the data were processed

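The authors deposited unnormalized counts of reads for each gene, 1 table for each experiment, made with HTSeq 0.9.1 and SAMtools on genome hg19 per the submitters' processing notes. The aligner, counting mode and use of strand were not given in the sources used here. Total RNA was depleted of rRNA, per the labels' protocols, so unspliced RNA can add to counts. Counts were tested in edgeR 4.0.16 (R 4.3.3) with TMM scaling, filterByExpr (minimum count 10) and its quasi-likelihood test, two-sided, with p-values adjusted by Benjamini-Hochberg across every tested gene and called below 0.05. Each experiment was fitted alone, and the difference of responses in 1 fit of 12 libraries. Standard errors are the log2 fold change divided by the square root of F. Alternatives used DESeq2 1.42.0, limma 3.58.1 (voom), other scalings, no filter, a replicate block and single libraries left out. The steps were tested on simulated counts. Positions, exon lengths and 3′ UTRs come from GENCODE 29 on GRCh38 and promoters from RefSeq; they were not set against hg19 coordinates.

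The members, lists, motifs and rules were chosen with earlier results of these data known. Named related genes are, at a mean log2 CPM of at least 1, the 12 largest called changes per experiment, those called in both, and the 12 largest called differences. Some lower genes whose level passed in 1 experiment only are among them. A fold against a group at 0 counts is set against 3 counts over that group. The counts of the other group are taken as observed, without their counting error.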

Additional observations from a re-analysis of the deposited data

Results flagged for a closer look

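The difference between the responses in the 2 experiments (log2 fold change in sgBACH1 minus that in siBACH1) was tested for the related transport genes in edgeR's quasi-likelihood fit of all 12 libraries, where 23.6% of 15644 genes were called. It was 2.60 for *FXYD3* (adjusted p = 9.36e-07), 2.22 for *SLC9A2* (adjusted p = 3.05e-06), 1.71 for *SLC9A3* (adjusted p = 0.00103), 1.62 for *AHCYL2* (adjusted p = 1.22e-07), 1.42 for *GOPC* (adjusted p = 8.65e-05) and 1.39 for *SLC26A2* (adjusted p = 0.00465). It was 1.34 for *ANO10* (adjusted p = 0.0374), 1.23 for *PRKACB* (adjusted p = 0.000509) and 0.86 for *P2RY2* (adjusted p = 9.8e-05). It was negative for *CA12* (-2.49, adjusted p = 2.21e-05), *KCNK5* (-1.34, adjusted p = 2.19e-06) and *KCNQ3* (-1.07, adjusted p = 1.2e-05).

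*ANO1* and *ANO6* had log2 fold changes of opposite sign in the 2 experiments, but the positive values were not called. *ANO1* had 0.13 ± 0.07 in siBACH1 (not called) and -0.23 ± 0.06 in sgBACH1. *ANO6* had -2.53 ± 0.14 in siBACH1 and 0.053 ± 0.076 in sgBACH1 (not called), where the groups overlapped and the sign is not set apart from 0. For these genes, which were chosen on these contrasts, no test of the difference is reported: it is a description, -0.37 ± 0.09 for *ANO1* and 2.58 ± 0.16 for *ANO6*.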

How the results depend on the processing

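No called result changed direction under the alternatives run. Values near 0 that were not called did so when 1 library was left out: *CA2* in siBACH1 (0.04, to -0.25 and -0.04) and *SLC26A2*, *ANO10* and *GOPC* in sgBACH1. Genes called in siBACH1 numbered 3481, and 2002 to 5121 with 1 library left out, lowest without siBACH1 libraries and highest without the second siCont library. Related transport genes that rose in siBACH1 numbered 11, and 6 to 20 with 1 library left out. Those that fell there numbered 10, 16 with no filter on low counts, and 7 to 19 with 1 library left out. The labels do not say whether libraries of the same replicate number were paired. Deviations of same-numbered libraries correlated at 0.01 to 0.06 in the siRNA experiment and at 0 to 0.05 in the knockout. Those of the other pairs ran from -0.05 to 0.02 and from -0.06 to 0.02. With 3 libraries per group these values cannot decide whether the libraries were paired. With a replicate block 3196 genes were called in siBACH1, 3530 in sgBACH1 and 3513 in the difference, and the related genes gave 12 rises and 11 falls, then 15 and 19. Across single values of the related genes, 575 stayed on their side of the threshold, 36 lost a call and 13 gained one. The difference of *ANO10* lost its call in several fits. *CFTR*, *AQP5* and *SLC4A4* did not pass the filter on low counts in either experiment.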
